A study of Rattus norvegicus with 16 samples.

Results

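The genes described here build, check and export proteins at the endoplasmic reticulum (ER), the compartment where secreted and membrane proteins are made. The list held 39 genes in 4 branches: 16 chaperones and folding enzymes, 9 genes of ER-associated degradation, 10 genes of translocation and signal peptide cleavage, and 4 stress sensors. Members were the probe sets annotated with exactly 1 of these symbols whose mean signal was at least 300 over the 13 arrays kept by the authors. Of 54 such probe sets, 52 passed this minimum, among 20904 of 31042 on the array, and they covered 37 genes. Derl3 and the sensor gene Ern1 had no probe set under these symbols. The dimmest member kept was Ero1b, with a mean signal of 324, followed by Hyou1 at 563. The probe sets left out were a second one of Ero1b at 100 and another of Sec61a1 at 38. A gene's values come from its brightest probe set.

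Cultures were rat levator ani satellite cells at passage 5, the labelled name for stem cells of a pelvic muscle that responds to androgens. Treatment lasted 4 h or 48 h, with 0.2% DMSO as vehicle or with NARA, a nonsteroidal agonist of the androgen receptor, at 10 nM. All 4 groups were grown in medium with charcoal-stripped serum during treatment, and each had 4 Affymetrix arrays. Per the series' design text, the authors dropped vehicle replicate 1 at 48 h and NARA replicates 1 and 4 at 4 h, which left 4 vehicle and 2 NARA arrays at 4 h and 3 vehicle and 4 NARA arrays at 48 h.

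Proteins that enter the secretory route cross the ER membrane through the Sec61 channel, lose their signal peptide to the signal peptidase complex, and fold with the help of chaperones such as Hspa5 (BiP) and of disulfide isomerases. Chains that fail to fold are drawn back to the cytosol and degraded. When unfolded chains build up, the sensors Ern1 (IRE1), Atf6 and Eif2ak3 (PERK) start the unfolded protein response, which raises many of these same genes. Muscle cells and fibroblasts in culture secrete much collagen and other matrix, which passes through this route.

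Pairs of the 13 arrays kept had correlations of 0.928 to 0.962 over the probe sets past the minimum. Vehicle 48 h replicate 1, which was dropped, had 0.916 to 0.935 against the 13. The NARA arrays dropped at 4 h had 0.560 to 0.603 against the other 14. These 2 NARA arrays also had Gapdh 3'/5' signal ratios of 3.34 and 2.15, against 1.06 to 1.36 on the arrays kept. Every result below comes from the 13 arrays unless stated. Of 14 satellite cell and myoblast markers, 10 had a probe set and 8 passed the minimum. By mean signal the 8 were Sdc4 (8550), Cxcr4 (2850), Cdh15 (1280), Ncam1 (1140), Myog (1120), Des (774), Itga7 (546) and Vcam1 (325). Passing the minimum alone does not show expression. Of 11 liver markers with a probe set, 7 passed it too, among them Ttr at 628 and Alb at 616. Pax7 and Myf5, which define satellite cells, had no probe set under the annotation used here. Myod1 had a mean signal of 83.9 ± 87.2 (SD, n = 13) and Chrna1 of 201, both under the minimum. Fibroblast markers were bright, with summed signals of 388000 to 495000 per array over 12 genes. In such bulk cultures, fewer cells of a type and less RNA per cell cannot be told apart. Sample titles speak of biological replicates but name no separate cultures or animals, and p-values therefore measure only the spread among these samples, possibly technical.

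After 48 h of NARA, 8 of the 37 genes were higher than in vehicle and 0 were lower by limma with Benjamini-Hochberg adjustment over all probe sets at 0.05. Genes that rose were the chaperones and folding factors Manf, Sdf2l1 and Hspa5, the translocation and signal peptidase genes Ssr1, Ssr2, Sec11c and Spcs1, and the degradation gene Selenos. Rises ran from 1.31-fold for Spcs1 to 1.78-fold for Manf. Over probe sets, 9 of 52 (17.3%) passed, all higher, where 2.8% of all probe sets tested passed in either direction and 1.36% passed as higher. The members were chosen with earlier results of these data known. An excess over all probe sets, here or by branch, is therefore no independent finding. Members were brighter than most, since 48 of the 52 had a mean signal of at least 1000, beside 11210 of all 20904. With that as the minimum, 13 of the 48 passed, all higher, beside 9.54% of the 11210 in either direction. Without any minimum, 6 of the 52 passed, all higher, beside 1.14% of 31042 in either direction. Members with a positive log2 change numbered 44 of 52, and their median change was 0.242 log2, beside -0.004 over all probe sets tested. Of the 37 genes, 33 had a positive change and 4 a negative one. At 4 h, 0 members passed. The 48 h count fell from 9 probe sets to 5 without vehicle 48 h replicate 2, and to 5 without vehicle 48 h replicate 3. Of all probe sets tested, 1.54% and 1.48% passed in these fits, so calls fell over all probe sets too. The member count was 1, for Manf, when all 16 arrays were fitted, beside 0.187% of all. It was 2, for Manf and Sdf2l1, when only the 2 groups compared were fitted, beside 1.04% of all.

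**Figure D1:**
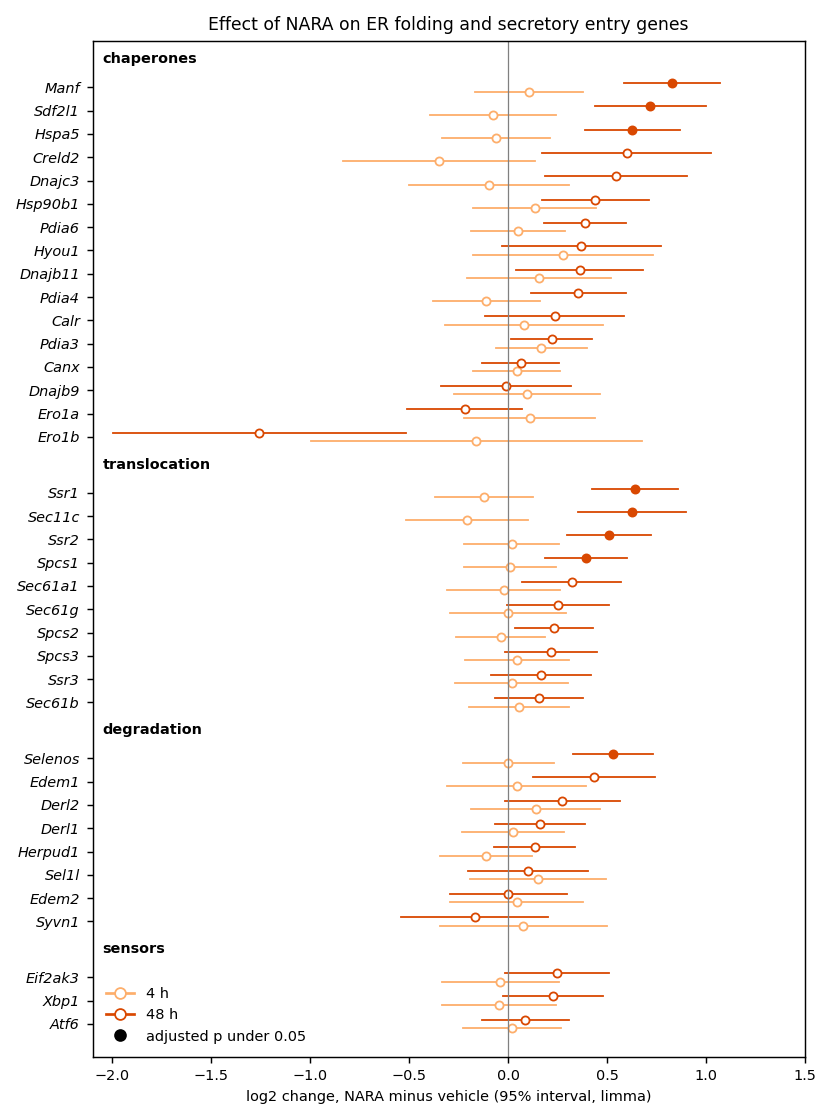
Log2 change of each member gene, NARA minus vehicle, by branch, with 95% intervals from limma. Pale circles are the 4 h comparison and dark circles the 48 h comparison, and filled circles mark an adjusted p under 0.05. The 8 filled circles all belong to 48 h and lie between 0.39 (Spcs1) and 0.83 (Manf), while Ero1b lies at -1.26 with the widest interval.

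Of the 16 chaperones and folding enzymes, 3 (18.8%) rose at 48 h, beside 1.71% of all 11286 genes tested, 13 had a positive change, and the median over genes was 0.367 log2. The arrays of both groups did not overlap in 8 higher genes and 1 lower gene of this branch. Over all 52 member probe sets, 20 had NARA arrays wholly above vehicle at 48 h and 1 wholly below, that is 38.5% and 1.92%, beside 7.19% and 7.53% of all probe sets tested.

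Manf, a small secreted protein that is retained in the ER and released under ER stress, had signals of 9610.2, 10709 and 11138 in the 3 vehicle arrays at 48 h and of 17434, 17719.6, 19193 and 20308 in the 4 NARA arrays. Every NARA array was above every vehicle array, and also above all 6 arrays at 4 h. Manf was 1.78-fold higher (log2 0.83, SE 0.110, limma adjusted p = 0.00181). At 4 h, Manf read 10797, 11725, 12649.6 and 13569 with vehicle and 12604 and 13535 with NARA, groups that overlapped (log2 0.10, SE 0.124). It passed the threshold in each of the 13 fits that left out 1 array.

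Sdf2l1, a partner of ER Hsp40 proteins that keeps unfolded chains soluble, read 2165, 2198 and 2309 with vehicle at 48 h and 3274, 3641, 3908 and 3989.9 with NARA. The vehicle arrays lay close together, and the lowest NARA array stood well above them. The change was 1.65-fold (log2 0.72, SE 0.128, limma adjusted p = 0.0116). At 4 h, Sdf2l1 read 2247, 2611, 2874 and 3199 with vehicle and 2396 and 2756 with NARA. Both NARA values fell inside the vehicle range. Without vehicle 48 h replicate 3, Sdf2l1 no longer passed.

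Hspa5, the main ER Hsp70 and the chaperone that holds the 3 sensors inactive, had signals of 27852, 29242 and 31494 with vehicle at 48 h and 41378, 46352, 47191 and 47863 with NARA. The groups did not overlap. Hspa5 was 1.55-fold higher (log2 0.63, SE 0.110, limma adjusted p = 0.00981). At 4 h, Hspa5 read 34944, 40053, 41173 and 42609 with vehicle and 34876 and 41308 with NARA. All 3 vehicle arrays at 48 h were therefore below all 4 vehicle arrays at 4 h, and the lowest NARA array at 48 h was within the 4 h vehicle range. Without vehicle 48 h replicate 2, Hspa5 no longer passed.

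**Figure D2:**
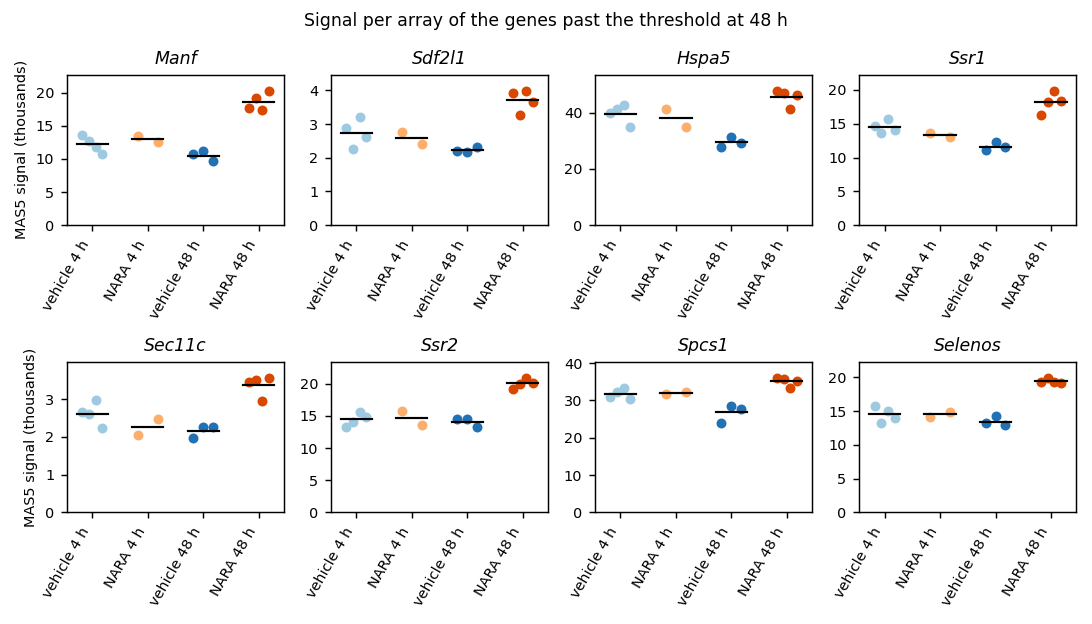
Signal of the 8 genes past the threshold at 48 h, as MAS5 signal divided by 1000, with 1 point per array and a line at each group's mean. Colours mark vehicle 4 h (4 arrays), NARA 4 h (2), vehicle 48 h (3) and NARA 48 h (4). In each panel the NARA 48 h arrays lie above all vehicle 48 h arrays, as for Manf, where the lowest NARA array reads 17434 and the highest vehicle array 11138.

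Pdia6, a disulfide isomerase, read 26031, 28336 and 29420.0 with vehicle at 48 h and 34745, 36213, 36587 and 38766 with NARA. Its groups did not overlap, and its change missed the threshold narrowly (log2 0.39, SE 0.0951, limma adjusted p = 0.0549). Hsp90b1 (Grp94), the ER Hsp90, read 14760.2, 14935 and 16489 with vehicle and 17946, 21456, 21524 and 23028 with NARA. Here too the groups did not overlap, with a log2 difference of 0.44 (SE 0.124, limma adjusted p = 0.0929). Both genes passed when vehicle 48 h replicate 1 was put back in the fit, and so did Dnajc3, an Hspa5 cochaperone with a log2 difference of 0.55 (adjusted p = 0.112) in the 13 arrays. That fit no longer called Sec11c and Spcs1, and 6 of the 8 genes still passed, beside 3.68% of all probe sets.

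Ero1b was the 1 member with NARA arrays wholly below vehicle at 48 h. This oxidase passes oxidising equivalents to the disulfide isomerases. Its signals were 306, 437 and 492 with vehicle and 69.6, 80.4, 223 and 257 with NARA, and 2 of the NARA arrays stood far below the other two. The log2 difference was -1.26 (SE 0.337, limma adjusted p = 0.0791), and Ero1b passed only when NARA 48 h replicate 3 was left out, among the 13 fits that left out 1 array. Ero1b passed the minimum of 300 through the other groups, with means of 411.5 in vehicle at 48 h, 409.7 in vehicle at 4 h and 355 in NARA at 4 h. Its mean of 158 in NARA at 48 h was under the minimum, where the offset of 50 compresses differences, so the lower level is a description only. Ero1a, its close relative, had a log2 difference of -0.22 at its brightest probe set and of 0.28 at the other.

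The other chaperones did not pass. Creld2, a secreted ER stress marker, had a log2 difference of 0.60 (adjusted p = 0.144), and its groups overlapped. Pdia4 had 0.36 (adjusted p = 0.119) with groups that did not overlap. The lectin chaperone Canx and the Hspa5 cochaperone Dnajb9 lay near 0, at 0.06 and -0.01. At the brightest probe sets of Canx, Dnajb9, Ero1a and Pdia3, both 95% bounds of the 48 h change lay within a 1.5-fold difference (0.585 log2), as they did for 19 of the 37 genes. That count was not made over all genes. The interval of Pdia3, 0.02 to 0.42 log2, lay above 0. Of the 37 genes, 18 had a 95% interval above 0 and 1 below 0, without adjustment for the number tested. Over all 11286 genes tested, 933 were higher and 1002 lower at a limma unadjusted p under 0.05. Other probe sets gave wider intervals, from -0.85 to 0.25 for Canx, from -0.16 to 0.72 for Ero1a and from -0.43 to 0.90 for Pdia3. One more probe set of Canx lay at 0.25 (adjusted p = 0.230), and there the groups did not overlap.

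Promoters of several members carry a known sequence, printed here because they share it. The ER stress element is the pair CCAAT and CCACG with 9 bases between, read by NF-Y at the first motif and by ATF6 or XBP1 at the second, and a second form has ATTGG and CCACG with 1 base between. RefSeq promoter windows of the rat build GRCr8, from 250 bases before to 50 after the gene start, were searched on both strands. Of the 39 listed genes, 31 had a window. The first form occurred in 9 of 31 (29.0%), against 21 of 27457 windows in the whole table (0.0765%), and the second in 3 of 31 (9.68%), against 15 (0.0546%). The element was first described from promoters of genes of this kind, so its presence is no independent finding. In the first form, the capitals mark CCAAT and CCACG.
Calr (chr19:40213135-40213153, minus strand): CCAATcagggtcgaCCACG
Canx (chr10:35158069-35158087, minus strand): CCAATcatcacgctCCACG
Creld2 (chr7:121789239-121789257, minus strand): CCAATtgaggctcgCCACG
Derl3 (chr20:12766601-12766619, plus strand): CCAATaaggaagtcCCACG
Dnajc3 (chr15:102432534-102432552, plus strand): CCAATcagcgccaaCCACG
Ero1b (chr17:92941458-92941476, minus strand): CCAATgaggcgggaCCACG
Hsp90b1 (chr7:23012451-23012469, minus strand): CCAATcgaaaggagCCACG
Hsp90b1 (chr7:23012347-23012365, plus strand): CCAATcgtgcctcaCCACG
Hspa5 (chr3:38452973-38452991, plus strand): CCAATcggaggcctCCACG
Xbp1 (chr14:84604558-84604576, plus strand): CCAATcgcagacggCCACG

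The second form, with ATTGG and CCACG in capitals, is shown for Dnajb11, an Hspa5 cochaperone, and for Herpud1, a membrane scaffold of degradation.
Dnajb11 (chr11:91672800-91672810, minus strand): ATTGGcCCACG
Herpud1 (chr19:10614821-10614831, minus strand): ATTGGgCCACG

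The 250 bases before the start of Hspa5 and of Hsp90b1 show the elements in place, in capitals, with 1 copy in Hspa5 and 2 in Hsp90b1. The second copy of Hsp90b1 lies on the opposite strand and so reads as its reverse complement.
Hspa5 (chr3:38452766-38453015, plus strand): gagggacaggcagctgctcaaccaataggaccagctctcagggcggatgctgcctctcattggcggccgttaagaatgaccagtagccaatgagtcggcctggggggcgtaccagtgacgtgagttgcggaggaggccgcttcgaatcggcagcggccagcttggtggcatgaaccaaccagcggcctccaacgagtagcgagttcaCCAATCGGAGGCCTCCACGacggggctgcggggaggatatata
Hsp90b1 (chr7:23012294-23012543, minus strand): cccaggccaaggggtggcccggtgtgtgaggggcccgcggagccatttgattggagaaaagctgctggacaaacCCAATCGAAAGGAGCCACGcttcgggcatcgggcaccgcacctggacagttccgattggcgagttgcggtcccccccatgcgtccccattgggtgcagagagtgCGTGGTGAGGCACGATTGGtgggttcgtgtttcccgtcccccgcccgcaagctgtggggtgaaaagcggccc

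Most genes with the element did not pass the threshold, as was so for the members as a whole. Of 12 genes with either form, 11 were on the array and 10 had a positive 48 h change, and 1, Hspa5, passed. Of all 37 member genes, 8 (21.6%) passed, beside 1.71% of all genes tested that passed as higher. The median change of the 11 was 0.363 log2, beside 0.251 for the 19 measured genes with a window and neither form. Of the genes that rose, 7 had a window, and in 6 of them no match was found, which says only that these letters are not in that window. The shorter CCACG alone was in 24 of 31 member windows (77.4%) and in 32.5% of all windows, and TGACGTGG, another site of these factors, was in 1 (3.23%), that of Hyou1, against 0.637%. CCACG is part of both forms. These matches describe letters and show no binding.

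**Figure D3:**
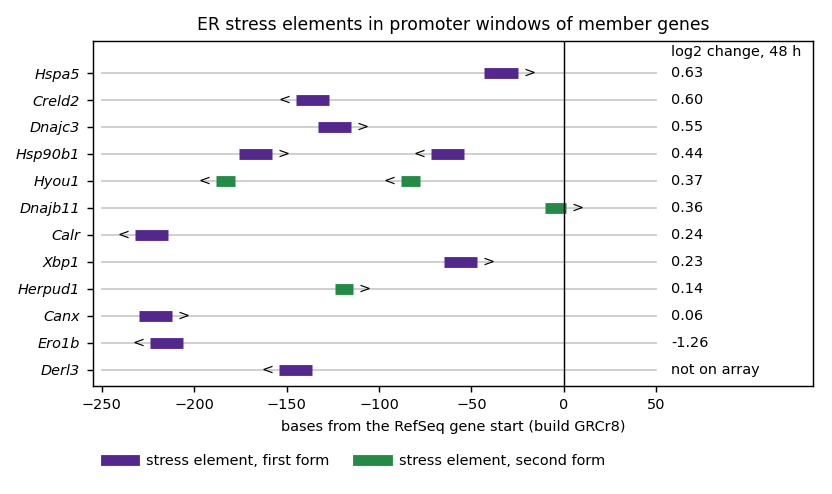
Position of the ER stress element in RefSeq promoter windows of 12 member genes, in bases from the gene start. Purple bars are the first form and green bars the second, arrowheads point from the CCAAT or ATTGG end to the CCACG end, and the right column gives the log2 change at 48 h. The genes are sorted by that change, from 0.63 for Hspa5 to -1.26 for Ero1b, and Derl3 was not on the array.

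Among translocation and signal peptide genes, 4 of 10 (40.0%) rose at 48 h, beside 1.71% of all genes tested, and all 10 had a positive change. The median over genes was 0.286 log2. Those that rose were Ssr1 and Ssr2, subunits of the translocon-associated protein complex beside the Sec61 channel, and Sec11c and Spcs1, subunits of signal peptidase. The channel's own subunits did not pass.

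Ssr1 read 11110.3, 11493 and 12236 with vehicle at 48 h and 16255, 18152, 18389.7 and 19897 with NARA. The NARA arrays were all above the vehicle arrays and above every 4 h array. Ssr1 was 1.56-fold higher (log2 0.64, SE 0.0995, limma adjusted p = 0.00524), and its second probe set gave log2 0.71 (adjusted p = 0.0104). At 4 h, Ssr1 read 13589, 14105, 14639 and 15768 with vehicle and 13061 and 13581 with NARA, so that both NARA arrays lay below the vehicle arrays by a small margin (log2 -0.12, SE 0.113). It passed in each of the 13 fits that left out 1 array, but not with all 16 arrays or with only the groups compared.

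Ssr2, the beta subunit, read 13264, 14449 and 14556 with vehicle at 48 h and 19219.8, 20025, 20098 and 20899 with NARA. All NARA arrays were above all vehicle arrays (1.42-fold, log2 0.51, SE 0.0973, limma adjusted p = 0.0169). At 4 h, Ssr2 read 13343, 14116, 14909.8 and 15570.0 with vehicle and 13549 and 15810.3 with NARA. The vehicle arrays of both times overlapped, and all lay below the NARA arrays at 48 h. Ssr2 did not pass without vehicle 48 h replicate 3 or 4.

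Sec11c, a catalytic subunit of signal peptidase, read 1974, 2255 and 2265 with vehicle at 48 h and 2962, 3463, 3495 and 3561 with NARA. Apart from a low array, the NARA values were close together, and even the low one was above the vehicle arrays. The change was 1.54-fold (log2 0.63, SE 0.124, limma adjusted p = 0.0200). At 4 h, Sec11c read 2229, 2606, 2654 and 2966 with vehicle and 2049 and 2461 with NARA, which overlapped. Sec11c did not pass in 3 of the 13 fits, those without vehicle 48 h replicate 2 or 3 or NARA 48 h replicate 4, nor with vehicle 48 h replicate 1 put back.

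Spcs1, a small accessory subunit of the same enzyme, read 23879.7, 27833 and 28629 with vehicle at 48 h and 33382, 35207, 35809 and 36022 with NARA. The groups did not overlap, and Spcs1 was 1.31-fold higher (log2 0.39, SE 0.0937, limma adjusted p = 0.0495). That is at the threshold, and Spcs1 passed in 0 of the 13 fits that left out 1 array, and not with vehicle 48 h replicate 1 put back. Of all 24 alternative fits, it passed in 4. At 4 h, Spcs1 read 30418, 31009.9, 32377 and 33247 with vehicle and 31767 and 32211 with NARA. As with Hspa5, the vehicle arrays at 48 h lay wholly below those at 4 h.

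Sec61a1, the pore of the channel, read 8826, 10719 and 10846 with vehicle at 48 h and 11367, 12758, 12936 and 13477 with NARA, with no overlap. Its log2 difference of 0.32 (SE 0.115, limma adjusted p = 0.183) did not pass, and a second probe set gave -0.16. Spcs2 read 7749, 8186 and 8732 with vehicle and 9075, 9809.9, 9892 and 9897 with NARA, also without overlap (log2 0.23, SE 0.0904, adjusted p = 0.224). Sec61g, the gamma subunit of the channel, read 34216, 35689.8 and 42296 with vehicle and 40560.2, 44555, 45606 and 46882 with NARA. Its groups overlapped (log2 0.25, SE 0.117, adjusted p = 0.325). Sec61b, Ssr3 and Spcs3 lay between 0.16 and 0.22 log2 and did not pass.

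In the degradation branch, 1 of 8 measured genes (12.5%) rose at 48 h, beside 1.71% of all genes tested. The median over genes was 0.148 log2, and 7 had a positive change. The gene that rose was Selenos, a selenoprotein that anchors the extraction machinery to the ER membrane.

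Selenos read 12934, 13187 and 14259.6 with vehicle at 48 h and 19211, 19309, 19319 and 19905 with NARA. The NARA arrays were tightly grouped and far above the vehicle arrays (1.44-fold, log2 0.53, SE 0.0930, limma adjusted p = 0.0104). At 4 h, Selenos read 13212, 14002, 15089 and 15797 with vehicle and 14096 and 14925 with NARA, inside the vehicle range. It passed in all 13 fits that left out 1 array. With all 16 arrays, only the groups compared or replicate number in the model, it did not.

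Edem1, a lectin that hands misfolded glycoproteins to degradation, read 9418, 13517 and 14297 with vehicle at 48 h and 15419, 15837, 17347 and 17560.2 with NARA. There was no overlap, but 1 vehicle array was far below the other two (log2 0.43, SE 0.141, limma adjusted p = 0.143). Derl2, a membrane protein of the extraction channel, read 4104, 4849 and 4858 with vehicle and 5229.5, 5357, 5449.7 and 6269 with NARA (log2 0.27, SE 0.132, adjusted p = 0.343). Its groups did not overlap, while a second probe set lay at -0.01. Derl1, of the same family, read 5892, 6003 and 6109.9 with vehicle and 6004, 6598, 7046 and 7262 with NARA, which overlapped (log2 0.16, SE 0.104, adjusted p = 0.502). Herpud1, one of the classic targets of the unfolded protein response, lay at 0.14 (adjusted p = 0.534). The ligase Syvn1 and its partner Sel1l lay at -0.17 and 0.10, and Edem2 at 0.00.

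None of the 3 measured sensor genes passed at either time. Xbp1, whose spliced form is a transcription factor of the response, read 10549.6, 11333 and 13622 with vehicle at 48 h and 12738, 13059, 14564 and 14897 with NARA. The highest vehicle array lay above 2 of the NARA arrays (log2 0.23, SE 0.115, limma adjusted p = 0.371). At 4 h, Xbp1 read 11514, 11918, 13143 and 13456 with vehicle and 11926 and 12251 with NARA. A probe set of this kind does not separate the spliced from the unspliced form.

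Eif2ak3, the kinase that slows translation under ER stress, read 2042, 2220.3 and 2225 with vehicle at 48 h and 2199, 2655, 2659 and 2825 with NARA. Its groups overlapped through 1 low NARA array (log2 0.25, SE 0.119, limma adjusted p = 0.346). At 4 h, Eif2ak3 read 2128, 2257, 2637 and 2703 with vehicle and 2299.8 and 2408 with NARA. Atf6, which is cut in the Golgi to release a transcription factor, read 4056, 4540.0 and 4694 with vehicle at 48 h and 4334, 4589.5, 4840.2 and 5068 with NARA. These largely overlapped (log2 0.09, SE 0.0996, adjusted p = 0.732), and a second probe set lay at -0.06. At 4 h, Atf6 read 3618, 3806, 3869 and 4208 with vehicle and 3797 and 4043 with NARA. For all 3 sensors, both 95% bounds of the 48 h change lay within a 1.5-fold difference.

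At 4 h, 0 of 52 member probe sets passed, and 0 had an unadjusted p under 0.05. Over all probe sets, 0% passed by limma and 429 higher and 563 lower had an unadjusted p under 0.05. Positive changes numbered 33 of 52 and the median was 0.031 log2, beside 0.007 over all probe sets. NARA arrays were wholly above vehicle in 2 member probe sets (3.85%, beside 7.32% of all) and wholly below in 5 (9.62%, beside 6.96%). Only 2 NARA arrays stood against 4 vehicle arrays here, and for Manf the 95% interval of the 4 h change ran from -0.17 to 0.38 log2. With all 16 arrays, 0 members passed and the median was 0.072, beside -0.053 over all probe sets. That fit includes the 2 dropped NARA arrays, which correlated least with the others. Without NARA 4 h replicate 2, 27 of 52 were positive and the median was 0.002, beside 0.010 over all probe sets.

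The 48 h effect was set against the 4 h effect by the difference of both in the same model. By limma, 0 member probe sets passed, beside 0.124% of all. Of the 52, 14 had an unadjusted p under 0.05, all with a larger effect at 48 h. Over all 20904 probe sets tested, 962 had one with a positive difference and 919 with a negative one. The smallest adjusted p among member genes was that of Ssr1 (log2 0.76, SE 0.151, adjusted p = 0.0931), followed by Sec11c at 0.83 (SE 0.187, adjusted p = 0.161) and Manf at 0.72 (SE 0.166, adjusted p = 0.176). A difference between the 2 times was therefore not shown for any of the 8 genes that rose at 48 h. The median of the difference was 0.209 log2, beside -0.011 over all probe sets, and 40 of the 52 members were positive.

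Between 4 h and 48 h, the median member change was below 0 in vehicle and above 0 in NARA. In vehicle, 0 members and 0% of all probe sets passed by limma. Of the 52 member probe sets, 7 had an unadjusted p under 0.05, all lower at 48 h, beside 814 lower and 722 higher of all 20904. The member median was -0.077 log2, beside 0.005 over all probe sets. That member median was -0.049 without vehicle 4 h replicate 2 and -0.124 with vehicle 48 h replicate 1 put back. The smallest p among member genes in vehicle was that of Hspa5 (log2 -0.42, SE 0.110, adjusted p = 0.455), with Ssr1 next at -0.32 (SE 0.0995, adjusted p = 0.553). In NARA, 0 members passed, beside 0.785% of all probe sets. There, 11 of the 52 member probe sets had an unadjusted p under 0.05 as higher and 1, Ero1b, as lower. Over all 20904 probe sets, 1206 were higher and 1222 lower at that level. The member median was 0.177 log2, beside -0.008 over all. Sec11c had a log2 difference of 0.57 between the times in NARA (SE 0.140, adjusted p = 0.110) and Manf of 0.51 (SE 0.124, adjusted p = 0.107). These comparisons share their arrays with the 48 h comparison and are not independent of it. On the arrays kept, beta-actin 3'/5' signal ratios were 2.42 to 2.81 at 4 h and 2.97 to 3.38 at 48 h. The part of this shift in the changes between the times was not tested.

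Set against the vehicle 4 h mean, the median over the 37 genes was -0.118, -0.093 and -0.142 log2 on the 3 vehicle arrays at 48 h and 0.210, 0.205, 0.158 and 0.250 on the 4 NARA arrays. The vehicle arrays at 4 h lay between -0.066 and 0.064 and the NARA arrays at 0.024 and -0.002. All 4 NARA arrays at 48 h were thus high, all 3 vehicle arrays at 48 h were low, and the 4 h arrays lay between them. Replicate 2 of both 48 h groups had the highest Gapdh 3'/5' ratios of the arrays kept, 1.36 in vehicle and 1.30 in NARA. Without the vehicle one, 5 of the 8 genes that rose at 48 h still passed, and without the NARA one 7 did. Of all probe sets tested, 1.54% and 2.3% passed in these 2 fits.

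**Figure D4:**
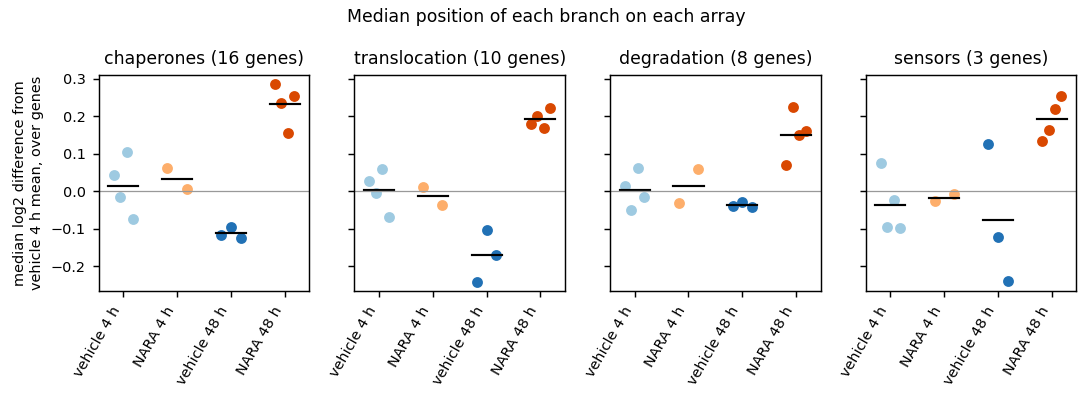
Median position of each branch on each array, as the median over its genes of log2 signal minus the gene's mean in vehicle 4 h. Points are the 13 arrays and lines are group means. In the chaperones, the NARA 48 h arrays lie between 0.154 and 0.285 and the vehicle 48 h arrays between -0.125 and -0.096, and among the 3 sensors 1 vehicle 48 h array, at 0.126, lies close to the lowest NARA array, at 0.133.

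**Figure D5:**
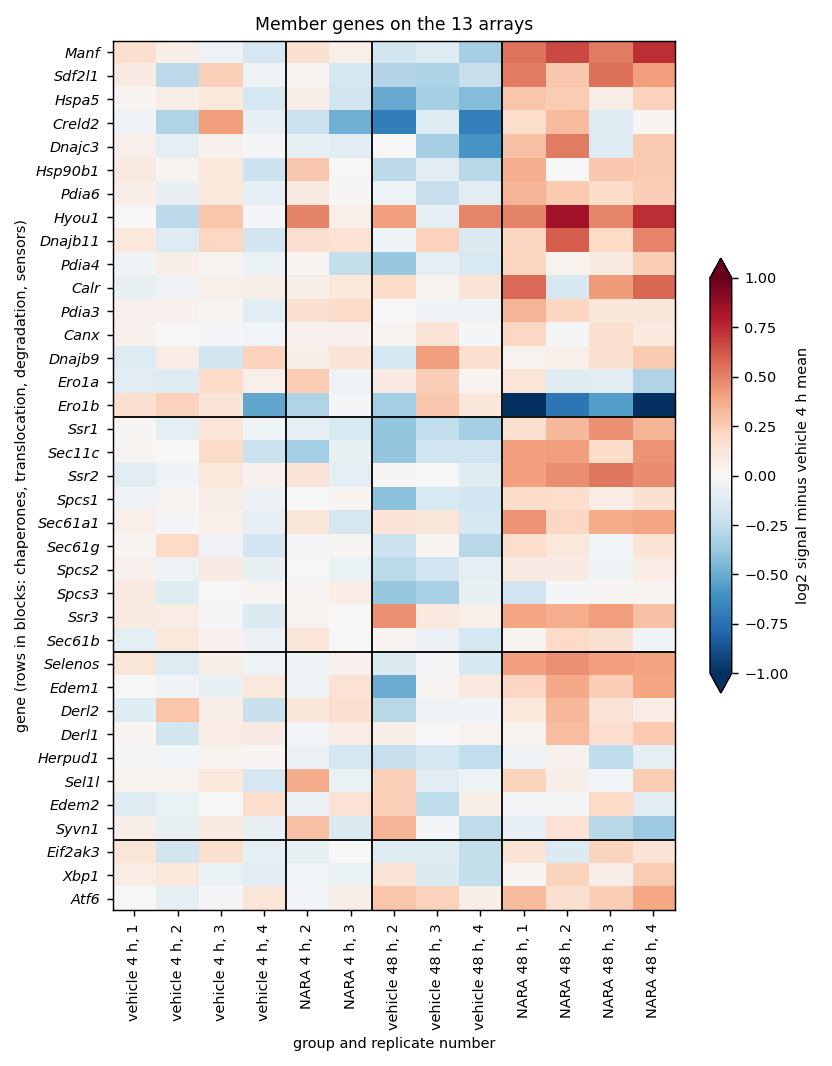
Log2 signal of each of the 37 genes on each of the 13 arrays, minus the gene's mean in vehicle 4 h, with red above and blue below that mean and colours ending at 1 in both directions. Lines divide the branches and the groups. The NARA 48 h columns are red for most chaperone and translocation genes, with Ero1b as the blue row, and the 4 h columns are pale.

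Other genes of the same compartment came from 6 lists with 132 measured genes of 137 listed. Of these, 14 rose at 48 h and 0 fell, that is 10.6% higher, beside 1.71% of all 11286 genes tested and 21.6% of the 37 members. The median was 0.172 log2, beside -0.005 over all genes. These lists too were chosen with earlier results known, so the excess is no independent finding. Other folding enzymes held 7 of the 14, out of 35. Those with the smallest p were Fkbp14, a prolyl isomerase of the ER (log2 0.62, SE 0.0891, limma adjusted p = 0.00294), the calcium-binding Rcn3 (log2 0.63, adjusted p = 0.00661) and Erp29 (log2 0.55, adjusted p = 0.0181).

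Among N-glycan genes, 2 of 23 rose, both of oligosaccharyltransferase, Ostc (log2 0.53, limma adjusted p = 0.0182) and Rpn2 (log2 0.49, adjusted p = 0.0369). In the vesicle coat and cargo exit list, 3 of 21 rose, namely the coat subunits Sec24d (log2 0.48, adjusted p = 0.0165) and Sec13 (log2 0.56, adjusted p = 0.0459) and the fusion protein Sec22b (log2 0.47, adjusted p = 0.0199). Of 18 other degradation genes and 18 other targeting genes, 0 passed, with medians of 0.037 and 0.101.

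Of 17 other stress signalling genes, 2 rose at 48 h. They were Creb3l1, a membrane-bound transcription factor of secretory and matrix-producing cells (log2 0.71, SE 0.156, limma adjusted p = 0.0328), and Tmbim6, a membrane protein that limits cell death (log2 0.50, SE 0.0899, adjusted p = 0.0125). Between 4 h and 48 h in NARA, Creb3l1 also rose, by 1.02 log2 (SE 0.176, adjusted p = 0.0259), as did Fkbp10, a collagen prolyl isomerase, by 0.78 (adjusted p = 0.0292). Atf4, Ddit3, Trib3, Chac1 and Ppp1r15a, 5 genes named for their place downstream of Eif2ak3 after their values were seen, did not pass at 48 h. The transcription factor Atf4 lay at 0.12 log2 (adjusted p = 0.660) and its target Ddit3 (CHOP) at 0.25 (adjusted p = 0.363). Further targets were Trib3 at 0.44 (adjusted p = 0.238), Chac1 at 0.17 (adjusted p = 0.682) and Ppp1r15a at -0.11 (adjusted p = 0.850).

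The genes whose log2 signal followed Hspa5 most closely over the 13 arrays were Nup37 (Pearson r = 0.959), Tmem97 (0.954), Spcs1 (0.936), Nme1 (0.935), Fst (0.934), Psmb4 (0.933), Polr3d (0.917), Tmbim6 (0.916), Rab2a (0.914) and Actr2 (0.911). Spcs1 is a member and Tmbim6 is on the signalling list. The arrays come from 4 groups, so these values hold the group differences and serve as a description only.

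Markers of cell types also moved at 48 h. The summed signal of the 10 satellite cell and myoblast markers on the array was 11600 to 13900 with NARA and 18200 to 22100 with vehicle, and 2 of 8 measured fell, Cxcr4 by 3.02 log2 (limma adjusted p = 0.000157) and Sdc4 by 0.72 (adjusted p = 0.0305), beside 1.5% of all genes tested that fell. These were the brightest 2 of that list, with mean signals of 8550 for Sdc4 and 2850 for Cxcr4. Of the 8, 4 had a positive change, and the median was -0.006 log2. Itga7 and Ncam1, named after their values were seen, lay at 0.95 and 0.63 (limma adjusted p = 0.212 and 0.223). Of 11 measured fibroblast markers, 2 fell, Lum by 1.06 log2 (adjusted p = 0.000248) and Pdgfra by 0.75 (adjusted p = 0.0454). There, 3 of 11 had a positive change and the median was -0.274 log2, while the summed signal was 397000 to 495000 with NARA and 388000 to 479000 with vehicle. Collagens weigh most in that sum, with mean signals of 134000 for Col1a2, 114000 for Col3a1 and 72100 for Col1a1. Plasma cell markers, of a cell type rich in these ER genes, summed to 2290 to 2860 with NARA and 2410 to 3010 with vehicle, and 0 of 4 passed. Their mean signals, 513 for Mzb1 to 823 for Jchain, were near those of liver markers such as Alb (616). The part of these shifts in the members' rise was not tested.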

How the data were processed

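RNA from 16 samples was measured on Affymetrix Rat Genome 230 2.0 arrays, 1 per sample, from 5 µg of total RNA per the labels. The deposited values are MAS5 signals, a linear intensity per probe set, scaled by the authors to a trimmed mean of 1500 according to the series' design text. The MAS5 version is not given in the sources used here. The submitters describe the RNA extraction both as Trizol and as a column kit.

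Signals were transformed as log2(signal + 50), which understates changes where signals are low. Those with a mean of at least 300 over the 13 arrays kept by the authors were tested, 20904 in all. Group means were modelled in limma 3.58.1 in R 4.3.3 (9 residual and 2.4 prior degrees of freedom), tested two-sided, with Benjamini-Hochberg adjustment over all probe sets and a threshold of 0.05. The number of arrays limits the precision. The statistics were tested on simulated data.

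Values per array are given for members past the threshold, for the sensors, and for up to 3 further members of each branch by smallest p at 48 h. Up to 3 passing genes are named per other list. The members and lists were chosen with earlier results of these data known. Same-numbered arrays did not deviate together over all probe sets (r between -0.036 and 0.039 in 16 pairs), so replicate numbers were not used in the main fit. This check cannot exclude a pairing. Alternatives were other sets of arrays, offsets, minimums, scalings, priors, probe sets and a replicate block. Probe names come from the platform annotation, and promoter windows from RefSeq (GRCr8).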

Additional observations from a re-analysis of the deposited data

Results flagged for a closer look

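In groups of 4 arrays, 5 of 74 gene and group pairs had 1 array standing apart from the other 3 by Dixon's test, where chance gives about 1 in 20. Sec11c read 2962.2 on NARA 48 h replicate 3, against 3463 to 3561.2 on the others. Spcs2 read 9075.4 on the same array, against 9809.9 to 9897.3. Selenos read 19905.1 on NARA 48 h replicate 2, against 19211.3 to 19319.1. On vehicle 4 h replicate 4, Ero1b read 263.4, against 442.4 to 479.3, and Pdia3, a disulfide isomerase of glycoproteins, read 23546, against 25976.2 to 26283.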

How the results depend on the processing

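No called member changed sign under any alternative run, and Manf passed at 48 h in all 24 of them. The 9 member probe sets past the threshold at 48 h became 1 with all 16 arrays, 2 with only the groups compared and 15 with a trended and robust prior. Of all probe sets, 0.187%, 1.04% and 5.25% passed there, beside 2.8% in the main fit. Leaving out 1 array gave 5 to 10, beside 1.48% to 2.52% of all. A minimum of 1000 gave 13 of 48, beside 9.54% of all, and no minimum gave 6 of 52, beside 1.14% of all. The fit with all 16 arrays includes the 2 NARA 4 h arrays that correlated at 0.560 to 0.603 with the other 14. With the replicate block, 2 remained at 48 h, for Manf and Ssr1, beside 1.49% of all. Whether same-numbered arrays share a culture is not stated. For the difference of the effects, where 0 passed, a minimum of 1000 gave 3, beside 0.83% of all probe sets. There the trended prior gave 6, beside 0.603%, and the mean of a gene's probe sets gave 1 gene. Its median of 0.209 log2 became 0.265 with vehicle 48 h replicate 1 put back and 0.183 to 0.264 when 1 array was left out. Between the times in NARA, where 0 passed, the minimum of 1000 gave 6, beside 2.9% of all, and the trended prior 5, beside 1.78%. Leaving out 1 array gave 0 to 1 (1 without NARA 4 h replicate 2, beside 0.33% of all). The median there of 0.177 became 0.124 with all 16 arrays. The cause of these shifts was not tested. Over all members, comparisons and alternatives, 4238 of 4393 log2 changes kept their sign. Signals near background, as for Ero1b, have the least certain fold changes.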

Other observations

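On the 2 NARA 4 h arrays that the authors left out, the branches parted. These arrays correlated at only 0.560 to 0.603 with the other 14, so their values are not read as an effect of NARA. The cause was not tested. The median over chaperone genes was 0.719 and 0.618 log2 above the vehicle 4 h mean, and that of degradation genes 0.886 and 0.639. Translocation genes lay at -1.252 and -0.908. Dnajc3 read 15174 and 17172 there, against 3197 and 3232 on the 2 NARA 4 h arrays kept. Both excluded arrays had Gapdh 3'/5' ratios of 3.34 and 2.15. Vehicle 48 h replicate 1, also left out, had a member median of -0.194, below the other vehicle arrays at 48 h.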
